A study of Mus musculus with 8 samples.

Results

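The genes examined here encode the protein subunits of the mitochondrial ribosome. They are the rows of the deposited gene table whose symbol begins with Mrpl or Mrps followed by a number. The rule found 77 of the 11541 genes in the table, 48 with a large subunit symbol (Mrpl) and 29 with a small subunit symbol (Mrps), on 17 chromosomes, and all 77 passed the expression filter and were tested. RNA was sequenced from mouse bone marrow-derived macrophages (BMMs), cells that grow out of marrow in macrophage colony-stimulating factor (M-CSF), a cytokine on which macrophages depend. Of the 8 libraries, 4 carry an Ogfrl1 knockout label (KO) and 4 a wild-type label (WT). Both groups came from non-adherent marrow cells kept for 4 days with 25 ng/mL M-CSF. The sources used here do not give the allele, its construction, or the strain, sex and age of the mice. Each library title holds the tag OGdelta and a number of its own, and what the tag and number stand for is not stated. Nothing states that the libraries stem from different animals. The p-values then reflect only the spread among the 8 libraries, part of which may be technical.

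The mitochondrial ribosome, or mitoribosome, is the translation machine inside mitochondria. It makes the few respiratory chain and ATP synthase proteins that the mitochondrial genome encodes, on ribosomal RNAs from that genome but with protein subunits that are all encoded in the nucleus and imported. Its small subunit holds the decoding centre, its large subunit holds the peptidyl transferase centre and the exit tunnel at the inner membrane, and many of its proteins have no bacterial counterpart.

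Raw counts per gene were deposited by the authors and are given here as CPM, reads scaled to a common library size, with the trimmed mean of M-values (TMM) as scaling factor. Library totals ranged from 47779990 to 53567289 counts in the KO-labelled group and from 39601341 to 61556269 in the WT-labelled group, and the 77 genes had between 270 and 4192 reads in any library. The targeted gene Ogfrl1 was counted in every library, with 159, 197, 149 and 146 CPM in the KO-labelled libraries, against 267, 284, 166 and 135 CPM in the WT-labelled libraries (log2 fold change -0.39, SE 0.24, adjusted p = 0.404, edgeR quasi-likelihood test). These groups overlapped. The log2 fold change of Ogfrl1 was 0.12, with the opposite sign, without WT-labelled libraries 1 and 2, and -0.65 with library quality weights in limma-voom (adjusted p = 0.0126), a fit that called 53.4% of all genes. The lower level in the KO-labelled libraries therefore rests on those 2 libraries, and the sources used here do not say which part of Ogfrl1 the allele removes, so the genotype is used below as labelled. All 8 macrophage markers listed, among them Lyz2, Csf1r, Adgre1 and Cd68, were in the table, and none of the 8 lymphoid and erythroid markers was. Of 8 neutrophil markers 7 were present, summing to 260.2 to 293 CPM in KO-labelled and 297 to 334 CPM in WT-labelled libraries, and of 6 stromal markers 5 were present, summing to 26.04 to 108 CPM in KO-labelled and 15.7 to 136 CPM in WT-labelled libraries. Their part in the values below was not tested. WT-labelled libraries 1 and 2 stood apart from the other 6 libraries: uniquely mapped reads made up 76.4 and 75.8% in them, against 83.8 to 87% in the other 6. Ribosomal RNA reads made up 7.16, 2.71, 8.24 and 7.21% in the KO-labelled libraries, against 1.79, 1.83, 4.21 and 9.10% in the WT-labelled libraries. No label gives a batch, so group medians and the log2 fold changes of genes at the extremes are also given without these 2 libraries.

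No mitochondrial ribosomal protein gene differed between the genotype labels past the threshold. Of the 77 genes, 0 had a Benjamini-Hochberg adjusted p under 0.05 by edgeR's quasi-likelihood test, as did 0% of all 11541 genes, and DESeq2 also called 0 of the 77 (0.00866% of all genes). The smallest adjusted p among them, 0.404, was shared with the smallest over all genes. At an unadjusted p under 0.05, 1 gene was higher in the KO-labelled libraries (Mrps18b), where the share over all genes was 2.01%, and 4 were lower (Mrpl51, Mrpl18, Mrpl50 and Mrps22), where the share over all genes was 4.51%. Together these 5 of 77 compare with 6.52% of all genes, a share close to their own. This count depended on single libraries: it was 31 without WT-labelled library 4 (45.1% of all genes) and 10 without KO-labelled library 2 (14.1%), with 0 adjusted p under 0.05 in both, and 0 without WT-labelled libraries 1 and 2 (0.996%). With library quality weights in limma-voom, 37 of the 77 were called (53.4% of all genes) and 43 had an unadjusted p under 0.05 (60.4%). Fold changes were small: the 77 log2 fold changes (KO over WT) ran between -0.50 and 0.39, with 41 above and 36 below 0 and a median of 0.060, against a median of -0.0047 over all genes. The direction of that median rests on WT-labelled libraries 1 and 2: without them 24 of the 77 were above and 53 below 0, with a median of -0.028, against -0.00098 over all genes. The 95% confidence interval stayed inside 2-fold in both directions for 76 of the 77 and inside 1.5-fold for 57. Mrps15 was the exception at 2-fold, with a lower bound of -1.01 on the log2 scale. In the authors' deposited table the lowest false discovery rate of a member was 0.447, 0 members were under 0.05, and the log2 fold changes had the same sign as those computed here for all 77. In these bulk samples fewer cells of a type and less RNA per cell cannot be told apart.

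**Figure D1:**
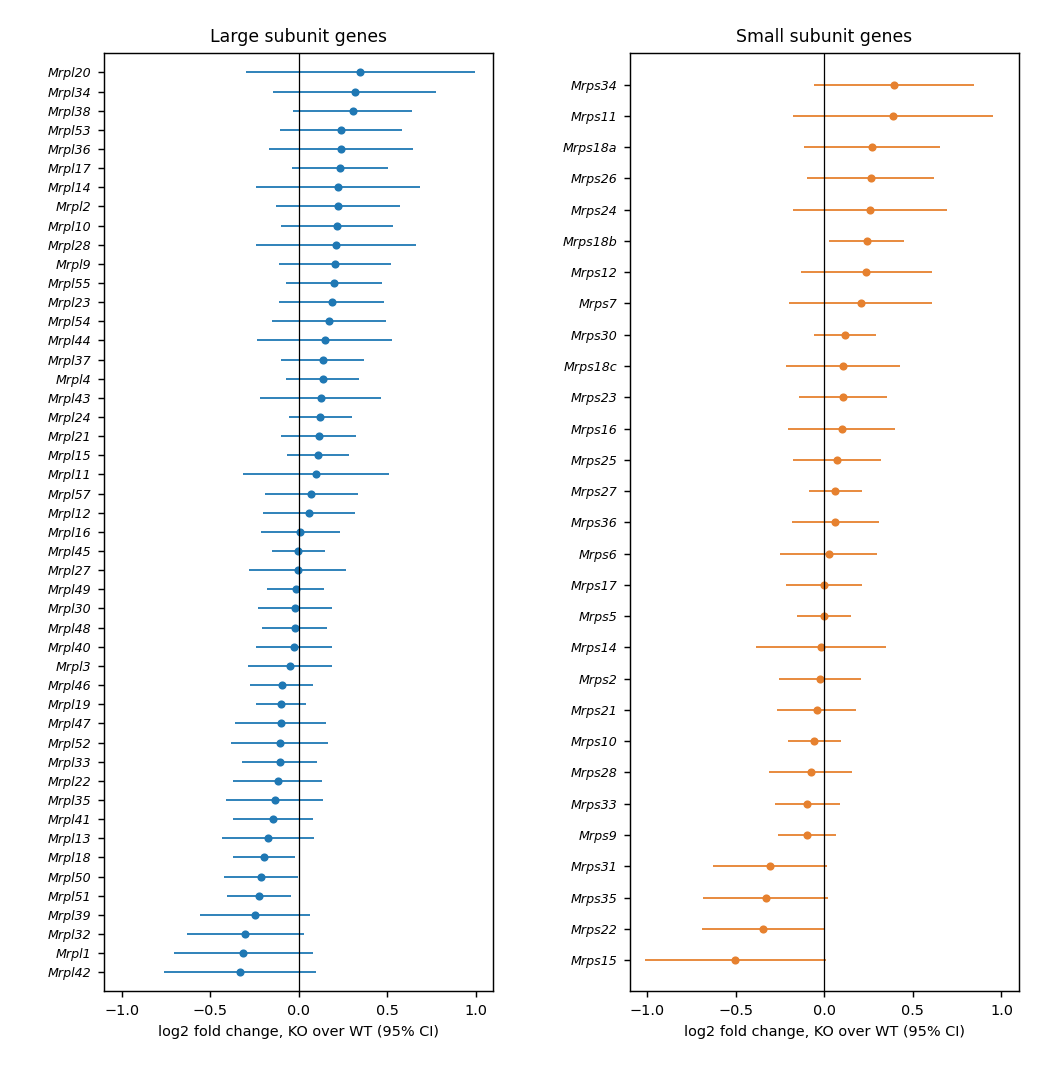
Log2 fold change of each gene, KO-labelled over WT-labelled libraries (horizontal axis), with 95% confidence intervals derived from the F statistic of the edgeR test. The 48 large subunit genes are at left and the 29 small subunit genes at right, ordered by value. The points lie between -0.50 and 0.39, and no gene had an adjusted p under 0.05.

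Large and small subunit genes were compared as groups. The 48 large subunit genes summed to 1298, 1326, 1306 and 1355 CPM in KO-labelled libraries 1 to 4, against 1319, 1250.0, 1329 and 1412 CPM in WT-labelled libraries 1 to 4. The 29 small subunit genes summed to 665, 664, 656 and 681 CPM in the KO-labelled libraries, against 680, 646, 658 and 692 CPM in the WT-labelled libraries. In both subunits the lowest and the highest WT-labelled library enclosed all 4 KO-labelled ones. The ratio of the large to the small sum was 1.952, 1.996, 1.992 and 1.990 in KO-labelled libraries, against 1.940, 1.936, 2.020 and 2.040 in WT-labelled libraries, so that the mean log2 ratio was 0.987 ± 0.015 in KO-labelled and 0.988 ± 0.039 in WT-labelled libraries (SD, n = 4 each). The difference of these means, -0.00088, was smaller than the spread between libraries, and was -0.034 without WT-labelled libraries 1 and 2, whose ratios were the lowest of the 8. WT-labelled libraries 3 and 4 had the 2 highest ratios. By gene, 25 of 48 large subunit log2 fold changes were above 0 (median 0.035), as were 16 of 29 small subunit ones (median 0.062). The difference of the medians, large minus small, was -0.027, and it was 0.055 when Mrps18a and Mrps30, which sit in the large subunit in mammalian structures despite their names, were counted there and Mrps36 was left out. Which subunit had the higher median therefore depended on how these 3 genes were placed. It also changed sign without WT-labelled library 4, where the difference was 0.040, and without WT-labelled libraries 1 and 2, where it was 0.0068 and both medians were below 0 (-0.027 for large and -0.034 for small subunit genes). Among nuclear genes with related functions, 76 cytosolic ribosomal protein genes were centred on a log2 fold change of 0.061 and 77 respiratory chain subunit genes on 0.022 (medians). In either list 0 genes were called, as were 0% of all genes. Both medians also turned without WT-labelled libraries 1 and 2, to -0.075 for the cytosolic ribosomal protein genes and -0.067 for the respiratory chain genes.

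Reads on the mitochondrial genome, from which the mitoribosome takes its own RNAs and all of its templates, were set beside these sums. The authors' mapping table gave them as 1.83, 3.17, 1.76 and 1.60% of reads in KO-labelled libraries, against 6.07, 7.03, 2.41 and 1.49% in WT-labelled libraries. The groups overlapped, and the difference of the means, -2.16 percentage points, had p = 0.257 in an exact two-sided permutation test over 70 assignments, whose smallest possible p is 0.0286. WT-labelled libraries 1 and 2 held the 2 highest shares, while the summed level of all 77 genes was 1999 and 1895.5 CPM in them, against 1962 to 2104 CPM in the other 6. The order of the libraries by summed level was not that by mitochondrial read share: library 1 of the WT-labelled group lay inside the range of the other 6 and library 2 below it.

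**Figure D2:**
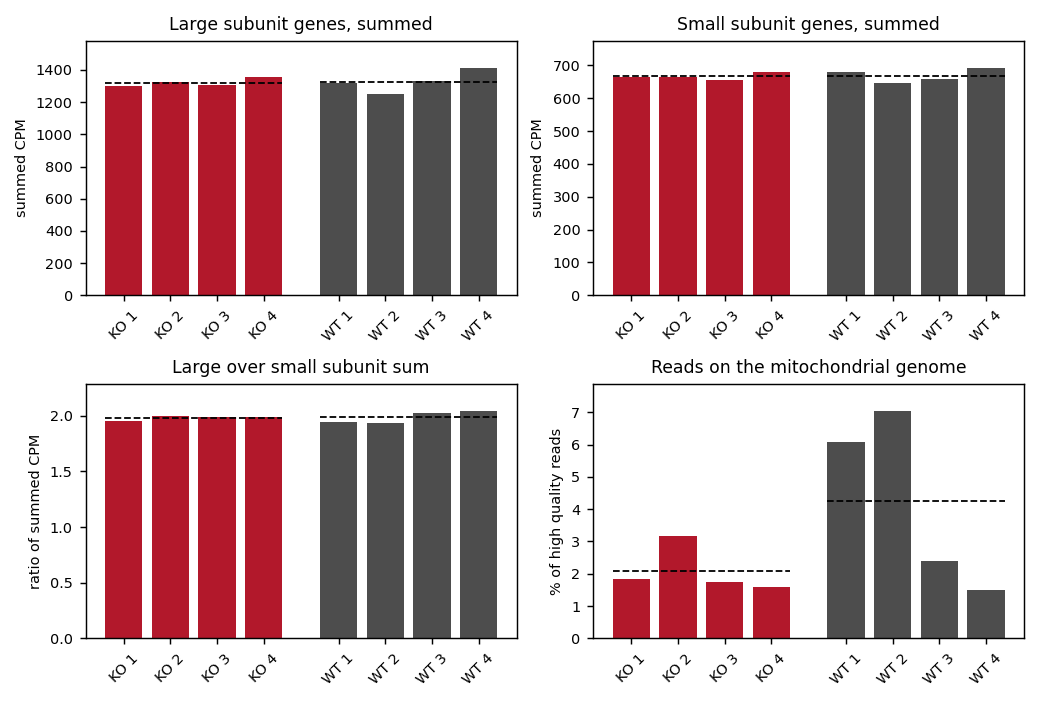
Summed CPM of the 48 large and 29 small subunit genes, their ratio, and the authors' percentage of reads on the mitochondrial genome in each library, KO-labelled at left in red and WT-labelled at right in grey, with dashed lines for the group means. The ratio runs from 1.94 to 2.04, while the mitochondrial reads reach 6.07 and 7.03% in WT-labelled libraries 1 and 2 and at most 3.17% in the other 6.

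The groups did not overlap for 3 genes, 1 higher in the KO-labelled libraries (Mrps18b) and 2 lower (Mrpl19 and Mrpl51), against 1.22% higher and 1.42% lower over all genes (2.64% in either direction). Mrps18b (chromosome 17, 35910385 to 35916369, mm10), 1 of the 3 mammalian relatives of a single bacterial small subunit protein, had 27.9, 30.2, 29.1 and 30.7 CPM in the KO-labelled libraries, against 23.2, 21.9, 27.8 and 27.01 CPM in the WT-labelled libraries. All 4 KO-labelled values lay above all 4 WT-labelled ones, by 0.093 CPM at the closest, and the log2 fold change was 0.24 (SE 0.094, unadjusted p = 0.033). Annotated exons of the antisense gene Gm16279 cover 60.0% of the exon bases of Mrps18b, and since the strand setting of the counting is not stated, reads of the 2 genes cannot be told apart. Mrpl51 (chromosome 6, 125192200 to 125194392, mm10), a mitochondria-specific large subunit protein, had 49.3, 52.01, 45.9 and 51.6 CPM in the KO-labelled libraries, against 63.4, 58.8, 52.1 and 57.97 CPM in the WT-labelled libraries. Its groups were separated by only 0.071 CPM, between KO-labelled library 2 and WT-labelled library 3, at a log2 fold change of -0.22 (SE 0.080, unadjusted p = 0.021). For Mrpl19 (chromosome 6, 81957842 to 81965949, mm10), a relative of a bacterial large subunit protein, the values were 56.4, 58.6, 54.5 and 58.7 CPM in the KO-labelled libraries, against 63.4, 62.96, 59.2 and 59.3 CPM in the WT-labelled libraries. Its log2 fold change of -0.10 (SE 0.062) was smaller, and its exons overlap those of Gcfc2 on the other strand over 39.2% of their length. Without WT-labelled libraries 1 and 2 the log2 fold changes were 0.10 for Mrps18b, -0.15 for Mrpl51 and -0.055 for Mrpl19, of the same sign and smaller.

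The other 3 genes at an unadjusted p under 0.05 had overlapping groups. Mrpl18, which has a bacterial relative that binds the small ribosomal RNA of the large subunit, had 58.8, 59.6, 57.1 and 62.5 CPM in the KO-labelled libraries, against 75.9, 67.6, 61.5 and 67.8 CPM in the WT-labelled libraries. Only WT-labelled library 3 lay inside the KO-labelled range (log2 fold change -0.20, SE 0.078, unadjusted p = 0.033). Mrpl50, a mitochondria-specific large subunit protein, had 36.8, 40.9, 33.97 and 34.5 CPM in the KO-labelled libraries, against 46.1, 44.5, 41.4 and 37.5 CPM in the WT-labelled libraries. Again a single WT-labelled value, that of library 4, lay inside the KO-labelled range (log2 fold change -0.21, SE 0.092, unadjusted p = 0.047). Mrps22, a mitochondria-specific small subunit protein, had 21.7, 24.9, 21.2 and 21.2 CPM in the KO-labelled libraries, against 34.6, 32.5, 24.3 and 21.9 CPM in the WT-labelled libraries. WT-labelled libraries 1 and 2 stood above the other 6, whose values overlapped (log2 fold change -0.35, SE 0.15, unadjusted p = 0.049), and without them the log2 fold change was -0.054. It was -0.12 for Mrpl18 and -0.11 for Mrpl50 without the same libraries.

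The highest log2 fold changes belonged to genes that were low in WT-labelled libraries 1 and 2. Mrps34 (chromosome 17, 24895120 to 24896273, mm10), a mitochondria-specific small subunit protein, had 17.96, 14.4, 16.3 and 17.4 CPM in the KO-labelled libraries, against 9.74, 9.11, 14.5 and 16.9 CPM in the WT-labelled libraries. Mrps11 (chromosome 7, 78783131 to 78792988, mm10), a relative of a bacterial small subunit protein, had 15.6, 11.2, 14.5 and 15.9 CPM in the KO-labelled libraries, against 7.45, 7.68, 12.9 and 15.6 CPM in the WT-labelled libraries. In Mrpl20 (chromosome 4, 155803618 to 155808829, mm10), a large subunit protein with a bacterial relative, the values were 33.9, 25.2, 33.6 and 37.03 CPM in the KO-labelled libraries, against 16.01, 16.9, 29.5 and 39.4 CPM in the WT-labelled libraries. In all 3 genes WT-labelled libraries 1 and 2 were below every other library, while WT-labelled libraries 3 and 4 lay inside the KO-labelled range, except library 4 in Mrpl20, which was the highest of all 8. Their log2 fold changes were 0.39 (SE 0.20), 0.39 (SE 0.25) and 0.35 (SE 0.28), and without those 2 libraries they were 0.073, 0.0064 and -0.087, the last with the opposite sign. Exons of Mapk8ip3 on the other strand cover 61.9% of the exon bases of Mrps34. The next highest were Mrpl34 (0.32), Mrpl38 (0.30) and Mrpl53 (0.24) in the large subunit and Mrps18a (0.27) and Mrps26 (0.26) in the small subunit. Without the 2 libraries all 5 were between -0.0056 and 0.075, with Mrpl34 and Mrps26 below 0. The whole exon length of Mrpl53 lies within the annotated same-strand gene Gm42688, so its count may hold reads of both. Ranges over the 8 libraries were widest for the following genes. The highest library was 2.46-fold above the lowest for Mrpl20, 1.94-fold for Mrpl11 and 1.88-fold for Mrpl28 in the large subunit, and 2.14-fold for Mrps11, 1.995-fold for Mrps15 and 1.97-fold for Mrps34 in the small subunit. The median ratio was 1.41 over the 77 genes and 1.51 over all genes.

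The lowest log2 fold changes showed the reverse arrangement. Mrps15 (chromosome 4, 126046928 to 126055536, mm10), a small subunit protein with a bacterial relative that binds the ribosomal RNA, had 45.4, 59.1, 45.9 and 45.5 CPM in the KO-labelled libraries, against 88.3, 90.5, 50.9 and 48.1 CPM in the WT-labelled libraries. WT-labelled libraries 1 and 2 had the highest values and libraries 3 and 4 lay inside the KO-labelled range, so the log2 fold change of -0.50 (SE 0.22, unadjusted p = 0.053) was -0.016 without the first 2. For Mrpl42 (chromosome 10, 95480806 to 95501927, mm10), a mitochondria-specific large subunit protein, the values were 43.8, 61.04, 43.3 and 45.04 CPM in the KO-labelled libraries, against 76.3, 70.5, 52.5 and 44.2 CPM in the WT-labelled libraries. KO-labelled library 2 was the highest of its group in both genes, and the log2 fold change of Mrpl42, -0.33 (SE 0.19), was -0.0011 without WT-labelled libraries 1 and 2. Mrpl1, the protein of the mobile stalk beside the exit site for transfer RNA, had 23.8, 28.4, 22.1 and 23.5 CPM in the KO-labelled libraries, against 39.7, 33.7, 24.1 and 24.1 CPM in the WT-labelled libraries. The groups overlapped, and its log2 fold change was -0.31 (SE 0.17) with all libraries and 0.020 without those 2. Mrpl32, whose precursor is matured by the m-AAA protease of the inner membrane, had a log2 fold change of -0.30 (-0.11 without the 2 libraries), and Mrpl39, Mrps31 and Mrps35, all mitochondria-specific, had -0.25, -0.31 and -0.33 (-0.10, -0.090 and -0.10 without them).

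**Figure D3:**
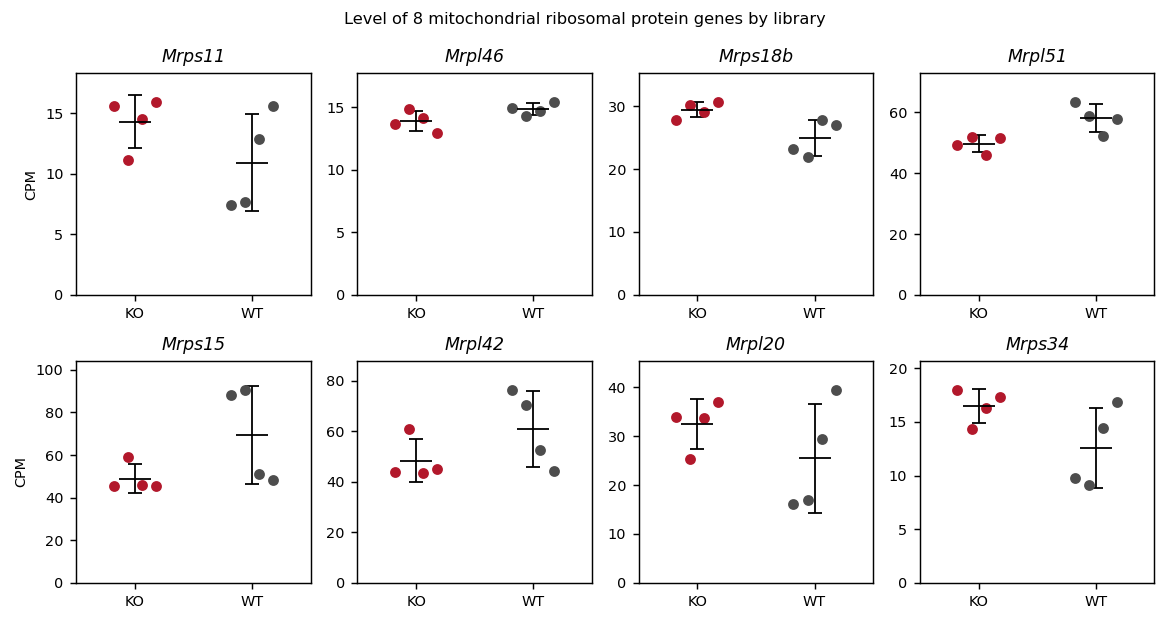
Level in CPM (vertical axes, starting at 0) of 8 genes in the 4 KO-labelled libraries (red) and the 4 WT-labelled libraries (grey, in the order 1 to 4 from left to right), with the mean and SD. Mrps18b and Mrpl51 show narrowly separated groups, whereas in Mrps11, Mrps15, Mrpl20 and Mrps34 the WT-labelled points fall into 2 pairs, with libraries 1 and 2 apart from 3 and 4.

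Across the 77 genes, libraries 1 and 2 of the WT-labelled group were both below the other 6 in 37 genes (25 large, 12 small) and both above them in 13 (9 large, 4 small). Over all genes the shares were 34.9% below and 35.3% above. The side on which they fell went with the base composition of the transcript. The 37 genes in which they were below had a median GC content of 53.9%, the 13 in which they were above 47.1%, and the other 27 genes 50.0%. Mrpl54 had the highest GC content of all members at 60.8% and Mrpl32 the lowest at 40.6%. In the 18 genes with a GC content of 55 to 62% the median log2 fold change was 0.21 (0.24 over all genes in that range), in the 29 genes at 50 to 55% it was 0.10 (0.082), in the 24 genes at 45 to 50% it was -0.039 (-0.092), and in the 6 genes at 40 to 45% it was -0.26 (-0.23). Spearman's rho between GC content and log2 fold change was 0.59 over the 77 genes, 0.63 over the 48 large and 0.50 over the 29 small subunit genes, and 0.73 over the 11476 genes with a GC value. These are descriptions across genes that share the same 8 libraries, and genes are not independent replicates. Without WT-labelled libraries 1 and 2, rho was 0.11 over the 77 genes and 0.096 over all genes, and the 4 medians lay between -0.10 and -0.018.

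**Figure D4:**
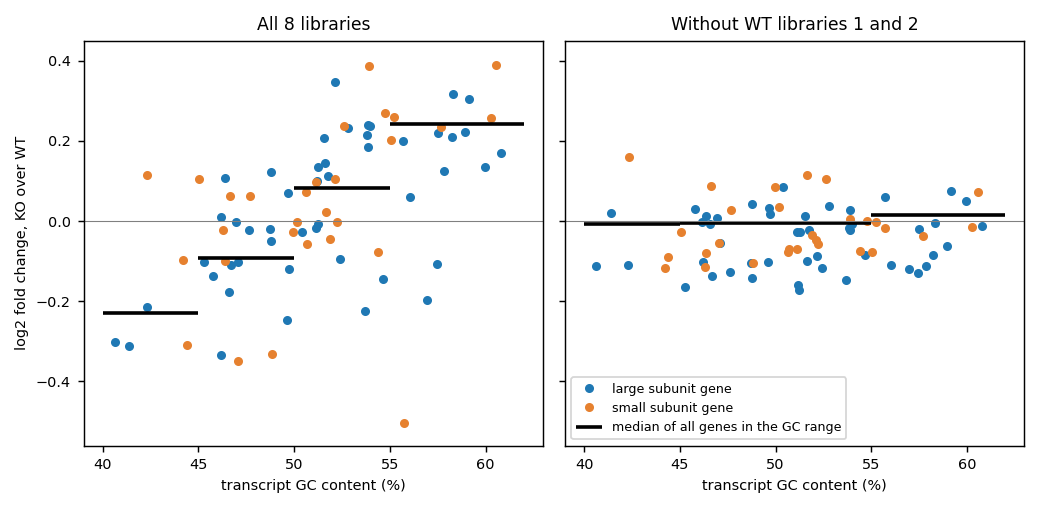
Log2 fold change, KO-labelled over WT-labelled (vertical axis), against transcript GC content in percent (horizontal axis) for large (blue) and small (orange) subunit genes, with black bars for the median of all genes in each GC range, from all 8 libraries at left and without WT-labelled libraries 1 and 2 at right. The points climb with GC content at left (Spearman's rho 0.59) and show little slope at right (rho 0.11), where 53 of the 77 lie below 0.

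Levels showed the same arrangement when summed. The 38 genes above the median GC content of 51.3% (24 large, 14 small) over the other 39 (24 large, 15 small) gave a ratio of summed CPM of 0.889, 0.826, 0.930 and 0.923 in KO-labelled libraries, against 0.723, 0.733, 0.862 and 0.914 in WT-labelled libraries. Libraries 1 and 2 of the WT-labelled group had the lowest ratios, KO-labelled library 2 the third lowest, and the remaining WT-labelled values lay within the KO-labelled range. Of the 38 genes above the median 29 had a log2 fold change above 0, and of the 39 at or below it 12 had. These numbers were 11 of 38 and 13 of 39 without WT-labelled libraries 1 and 2. Some genes went against the tendency. Mrps15, at 55.7% GC, had the lowest log2 fold change of all, and Mrpl18 (56.95%) and Mrpl51 (53.7%) were also below 0. Mrps18c (45.04%) and Mrps30 (42.3%) had low GC contents and log2 fold changes of 0.11 and 0.11. When the smooth dependence of each library on GC content was removed, the log2 fold change of Mrps15 was -0.77. That of Mrpl18 was -0.48 and that of Mrpl51 -0.37. These genes were named for lying below 0 at GC contents where the median over all genes was above 0. Removing that trend makes such values more negative, so their larger size follows from that choice of genes. Uncorrected and without WT-labelled libraries 1 and 2, the log2 fold changes were -0.016 for Mrps15, -0.12 for Mrpl18 and -0.15 for Mrpl51. No member had an adjusted p under 0.05 after the correction. Over the whole set the median was 0.0088 after the correction. Spearman's rho between GC content and the corrected log2 fold change was -0.24 over the 77 genes and -0.0021 over all genes. The correction was fitted over all genes, so a value near 0 there was built in. The value over the 77 genes, which share the same 8 libraries, was not tested.

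**Figure D5:**
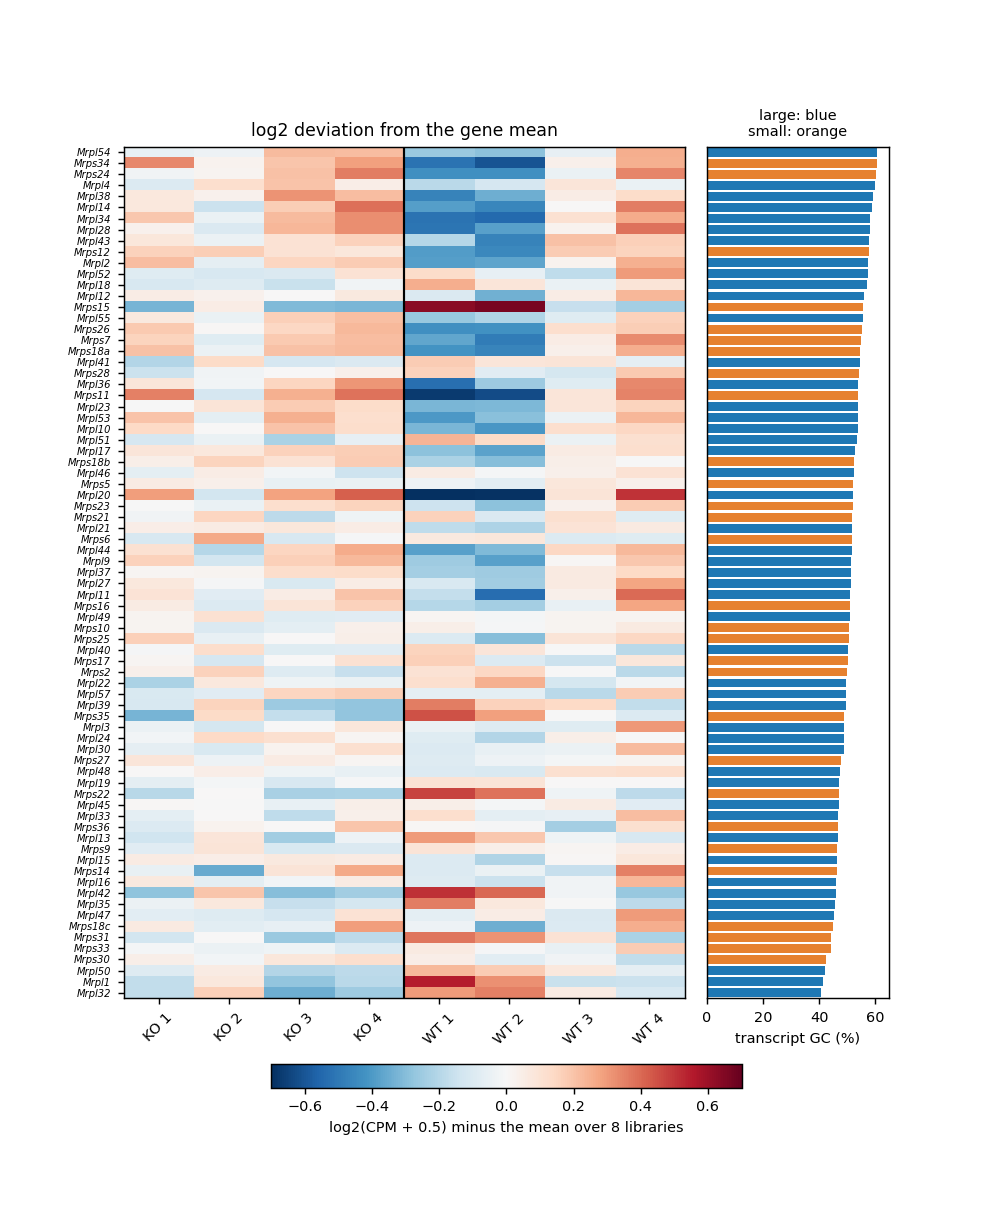
Deviation of log2(CPM + 0.5) from the mean of the gene over the 8 libraries for all 77 genes (rows, ordered by GC content with the highest at the top), in KO-labelled libraries at left of the line and WT-labelled libraries at right, with the transcript GC content as bars (large subunit blue, small subunit orange). WT-labelled libraries 1 and 2 are mostly below the mean in the upper rows and more often above it in the lower rows, and Mrps15 is an exception among the upper rows.

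Genes of known functional sites were read one by one. In the stalk that recruits translation factors to the large subunit, Mrpl10, which holds the stalk, had a log2 fold change of 0.21 (SE 0.14), Mrpl11, at the stalk base, one of 0.10 (SE 0.18), and Mrpl12, the stalk protein itself, one of 0.060 (SE 0.11). Mrpl12 had 46.7, 45.99, 45.3 and 47.3 CPM in the KO-labelled libraries, against 42.1, 35.6, 46.8 and 53.1 CPM in the WT-labelled libraries. Its groups overlapped, and without WT-labelled libraries 1 and 2 the 3 log2 fold changes were -0.016, -0.16 and -0.11, all on the other side of 0. Mrpl45, at the exit tunnel where the ribosome meets the inner membrane, had 28.4, 28.2, 27.3 and 29.1 CPM in the KO-labelled libraries, against 29.1, 27.99, 29.5 and 26.7 CPM in the WT-labelled libraries. It was the steadiest of the 77 genes, with its highest library 1.102-fold above its lowest (log2 fold change -0.0028, SE 0.066). Mrpl44, which carries a ribonuclease III fold, had a log2 fold change of 0.15 (SE 0.17, -0.10 without the 2 libraries). In the small subunit, Mrps27, a pentatricopeptide repeat protein, had a log2 fold change of 0.062 (SE 0.066). Mrps12, whose bacterial relative lines the decoding centre, had 12.7, 12.9, 12.2 and 12.02 CPM in the KO-labelled libraries, against 8.52, 8.14, 12.9 and 12.7 CPM in the WT-labelled libraries. WT-labelled libraries 1 and 2 were again the lowest, and its log2 fold change was 0.24 (SE 0.16) with them and -0.036 without them.

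The 3 related genes Mrps18a, Mrps18b and Mrps18c encode alternative relatives of a single bacterial protein, of which the product of Mrps18a sits in the large subunit. Mrps18a had 27.7, 23.2, 27.7 and 27.98 CPM in the KO-labelled libraries, against 17.8, 17.3, 24.6 and 28.7 CPM in the WT-labelled libraries (log2 fold change 0.27, SE 0.17, 0.00061 without WT-labelled libraries 1 and 2). For Mrps18c the values were 20.8, 18.9, 19.2 and 24.6 CPM in the KO-labelled libraries, against 19.4, 15.6, 18.6 and 23.9 CPM in the WT-labelled libraries (log2 fold change 0.11, SE 0.14, -0.027 without them). The groups overlapped in both genes and not in Mrps18b, described above. Per kilobase of the deposited gene length the median levels over the 8 libraries were 30.3 CPM per kb for Mrps18a, 26.4 for Mrps18b and 38.4 for Mrps18c. Mrps30, also a large subunit protein by structure, had 20.7, 19.8, 21.2 and 21.8 CPM in the KO-labelled libraries, against 20.7, 19.05, 19.7 and 17.7 CPM in the WT-labelled libraries, with overlapping groups and a log2 fold change of 0.11 (SE 0.078). Mrps36, now known as a subunit of the alpha-ketoglutarate dehydrogenase complex rather than of the ribosome, had a log2 fold change of 0.062 (SE 0.11).

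Levels of different genes were compared only per kilobase. The median over the 77 genes was 20.9 CPM per kb, with 21.8 over the large and 18.6 over the small subunit genes. Mrps21 was highest at 75.99 CPM per kb (range over libraries 68.2 to 86.8), followed by Mrpl42 at 73.2 (65.03 to 115), Mrpl18 at 64.7 (59.5 to 79.2), Mrpl33 at 55.4 (49.7 to 65.6), Mrps15 at 52.8 (48.4 to 96.5) and Mrpl30 at 50.4 (48.2 to 60.7). Each of these ranges overlapped that of its neighbour in the order. Mrpl17 was lowest at 4.29 (3.11 to 4.58), then Mrpl57 at 4.91 (4.498 to 5.86), Mrps25 at 5.08 (4.05 to 5.62), Mrpl1 at 5.76 (5.27 to 9.48) and Mrpl35 at 6.63 (5.93 to 8.68), also with overlapping neighbours. The lowest in the small subunit after Mrps25 were Mrps6 (8.29), Mrps31 (8.75) and Mrps14 (9.67). The deposited length is the summed exon length, 6712 bases for Mrpl17 and 407 for Mrps21, so a long annotated last exon that is little used lowers this measure. Exons of Nr2c2 on the other strand cover 75.7% of those of Mrps25, and 13 of the 77 genes overlapped an opposite-strand gene over more than 10% of their exon bases (Mrpl10, Mrpl12, Mrpl18, Mrpl19, Mrpl24, Mrpl43, Mrpl48, Mrps11, Mrps18b, Mrps25, Mrps27, Mrps30 and Mrps34). Another 4 (Mrpl33, Mrpl53, Mrps6 and Mrps18c) overlapped a same-strand gene to that extent, and 3 (Mrpl23, Mrpl48 and Mrps36) have annotated pseudogene copies whose reads the counting could split. The overlaps were read from an annotation that need not be the one used for counting. By deposited positions Mrps11 and Mrpl46 do not overlap, nor do Mrpl18 and Tcp1 or Mrpl43 and Peo1 (Twnk). The log2 fold changes of the least abundant members named here were 0.23 for Mrpl17, 0.071 for Mrpl57, 0.071 for Mrps25, -0.14 for Mrpl35, 0.024 for Mrps6 and -0.021 for Mrps14, and those of the most abundant were -0.044 for Mrps21, -0.11 for Mrpl33 and -0.021 for Mrpl30. Without WT-labelled libraries 1 and 2 those of Mrps25 and Mrpl35 turned sign, to -0.078 and 0.029, and that of Mrpl17 was 0.037.

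Start sites of some of these genes face those of another gene, and the share over all genes was not computed. For 25 of the 77, a tested gene on the opposite strand starts within 1000 bases, and the log2 fold changes of gene and neighbour had the same sign in 14 and opposite signs in 11 (10 and 15 without WT-labelled libraries 1 and 2). Mrps11 and Mrpl46 are the only such pair between members, with start sites 42 bases apart on chromosome 7. This pair enters the counts once from each gene, with opposite signs with all libraries and without WT-labelled libraries 1 and 2. Mrpl46, a large subunit protein, had 13.6, 14.9, 14.1 and 12.9 CPM in the KO-labelled libraries, against 14.97, 14.3, 14.7 and 15.4 CPM in the WT-labelled libraries (log2 fold change -0.10, SE 0.078), whereas Mrps11 had a log2 fold change of 0.39. The highest library of Mrpl46 was 1.19-fold above its lowest and that of Mrps11 2.14-fold. The transcripts have GC contents of 52.4% and 53.9%, and the part of GC content in these ranges was not tested. Exons of Mrpl46 in the annotation read for overlaps cover 16.6% of the exon bases of Mrps11 on the other strand. The deposited positions of the 2 genes do not overlap, with Mrpl46 ending at 78783089 and Mrps11 starting at 78783131. The annotation release and strand setting of the counting are not stated, so whether this overlap touched the counts is not known. Mrps12 starts 187 bases from Sars2, the mitochondrial seryl-tRNA synthetase, and the 2 genes had log2 fold changes of 0.24 and 0.28 (-0.036 and 0.12 without WT-labelled libraries 1 and 2). Mrpl32 faces the proteasome gene Psma2 (-0.30 and -0.19) and Mrpl18 the chaperonin gene Tcp1 (-0.20 and -0.20). Without the same libraries the log2 fold changes were -0.11 and -0.052 for Mrpl32 and Psma2 and -0.12 and 0.0025 for Mrpl18 and Tcp1. Exons of Tcp1 in the annotation read for overlaps cover 12.9% of the exon bases of Mrpl18, though the deposited positions of these 2 genes do not overlap.

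RefSeq promoter windows (GRCm38.p6), each from 250 bases before to 50 after a start site, were matched by symbol for 68 of the 77 genes. Motifs were counted on either strand, with the share over the 8846 tested genes that have a window after each value. NRF-1, a factor known to bind many genes of mitochondrial function, has the core GCGCATGCG, found in 10.3% of the 68 genes (4.43%), and GCGCNTGCG, which contains it, in 26.5% (16.04%). The ETS core CCGGAAG, bound among others by GABPA (NRF-2), was found in 36.8% (21.5%), and the YY1 core AAGATGGC in 17.6% (5.72%). TATAAA was found in 7.35% (8.34%) and CCAAT in 39.7% (43.4%). A match is a description of the letters and does not show binding. The windows below belong to the head-to-head pair, to the gene that faces Sars2, and to 2 of the 3 genes without overlap between groups. Capitals mark matches to these motifs or to their reverse complements, and all are read 5′ to 3′ on the strand of the gene.
Mrps11 (chr7:78782881-78783180, plus strand): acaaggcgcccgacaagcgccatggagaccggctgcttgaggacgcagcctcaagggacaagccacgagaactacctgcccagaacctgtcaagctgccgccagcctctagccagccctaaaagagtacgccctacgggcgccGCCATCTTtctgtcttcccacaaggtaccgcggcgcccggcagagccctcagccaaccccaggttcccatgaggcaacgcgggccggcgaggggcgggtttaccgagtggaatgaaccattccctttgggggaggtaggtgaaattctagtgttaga
Mrpl46 (chr7:78783040-78783339, minus strand): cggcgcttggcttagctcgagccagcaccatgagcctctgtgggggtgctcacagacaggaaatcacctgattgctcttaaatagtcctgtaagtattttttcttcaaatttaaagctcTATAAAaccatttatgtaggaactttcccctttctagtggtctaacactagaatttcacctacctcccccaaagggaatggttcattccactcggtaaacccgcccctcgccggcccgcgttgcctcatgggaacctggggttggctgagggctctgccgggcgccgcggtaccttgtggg
Mrps12 (chr7:28741772-28742071, minus strand): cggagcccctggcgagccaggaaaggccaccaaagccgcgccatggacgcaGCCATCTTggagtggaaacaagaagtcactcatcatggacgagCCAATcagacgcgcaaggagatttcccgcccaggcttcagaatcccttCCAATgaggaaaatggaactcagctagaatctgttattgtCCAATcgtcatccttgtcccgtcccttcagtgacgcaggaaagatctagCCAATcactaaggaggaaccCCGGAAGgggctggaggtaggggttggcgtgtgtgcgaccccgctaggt
Mrps18b (chr17:35916391-35916690, minus strand): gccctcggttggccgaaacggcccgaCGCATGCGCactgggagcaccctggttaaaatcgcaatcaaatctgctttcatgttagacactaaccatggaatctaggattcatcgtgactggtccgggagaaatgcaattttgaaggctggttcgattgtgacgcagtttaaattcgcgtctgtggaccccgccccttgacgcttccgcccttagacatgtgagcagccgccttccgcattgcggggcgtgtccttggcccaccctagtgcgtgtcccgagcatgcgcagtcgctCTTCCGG
Mrpl51 (chr6:125191950-125192249, plus strand): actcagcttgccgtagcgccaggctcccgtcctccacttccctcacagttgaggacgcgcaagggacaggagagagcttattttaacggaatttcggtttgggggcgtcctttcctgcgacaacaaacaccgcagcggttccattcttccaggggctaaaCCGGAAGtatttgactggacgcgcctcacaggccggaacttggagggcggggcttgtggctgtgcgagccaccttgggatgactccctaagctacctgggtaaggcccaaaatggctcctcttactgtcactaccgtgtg

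The windows of Mrps11 and Mrpl46 share 141 bases, read on opposite strands. The Mrps11 window holds a reverse YY1 core before the shared stretch and the Mrpl46 window a TATAAA, and neither motif lies in the shared bases. Mrps12 has a reverse YY1 core, several CCAAT letters and an ETS core close to the start site. Mrps18b holds a reverse NRF-1 core near the start of its window and a reverse ETS core at the end, and Mrpl51 a single ETS core.

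Other nuclear genes of mitochondrial translation were read in 6 lists. In each list 0 genes were called, as were 0% of all 11541 genes, so these counts say nothing particular about the lists. Among 6 tested subunits of the mitoribosome with other names, Chchd1 had 20.2, 19.7, 18.6 and 21.8 CPM in the KO-labelled libraries, against 26.7, 25.8, 20.1 and 26.2 CPM in the WT-labelled libraries (log2 fold change -0.30, SE 0.11, unadjusted p = 0.022), the groups overlapping in WT-labelled library 3, while Gadd45gip1 and Dap3 had 0.23 and 0.19 and the list a median of 0.12. Without WT-labelled libraries 1 and 2 the log2 fold changes were -0.20 for Chchd1, 0.020 for Gadd45gip1 and 0.015 for Dap3, and the list median was -0.00040. Of 27 assembly factors 17 were above 0 (median 0.064), and Dhx30, a helicase of mitoribosome assembly, had 0.24 (SE 0.10, unadjusted p = 0.043), with Ybey, an endonuclease, at 0.30 and C1qbp at -0.22. Without those 2 libraries 12 of the 27 were above 0 (median -0.0096), with Dhx30 at 0.13, Ybey at 0.28 and C1qbp at -0.040. Of 17 translation factors and mRNA-handling genes 13 were below 0 (median -0.12), and Slirp, the partner of Lrpprc in stabilising mitochondrial mRNA, had -0.41 (SE 0.17, unadjusted p = 0.039), with the release factor Mtrf1l at -0.32 and the initiation factor Mtif2 at -0.22. The median GC content of that list was 48.7%, against 51.3% for the ribosomal protein genes. Its median log2 fold change was -0.10 after the GC correction, and the part of GC content was not tested. Without WT-labelled libraries 1 and 2 the list median was -0.032, with Slirp at -0.22, Mtrf1l at -0.047 and Mtif2 at -0.040. Of 19 mitochondrial aminoacyl-tRNA synthetases, which charge transfer RNA, 13 were above 0 (median 0.12), and 0 had an unadjusted p under 0.05, with Sars2 at 0.28, Aars2 at 0.41 and Rars2 at -0.21. Without the 2 libraries 9 of the 19 were above 0 (median -0.0017), and these 3 genes had 0.12, 0.071 and -0.11. In the list for transcription and replication of mitochondrial DNA (12 genes, median -0.063, and 0.039 without WT-labelled libraries 1 and 2), Ssbp1, the single-strand binding protein, had 27.97, 32.1, 24.6 and 26.6 CPM in the KO-labelled libraries, against 65.9, 61.8, 29.9 and 30.3 CPM in the WT-labelled libraries. As in Mrps15, the 2 high values were those of WT-labelled libraries 1 and 2, and its log2 fold change was -0.75 (SE 0.27, unadjusted p = 0.022) with them and -0.11 without them. The polymerase subunit gene Polg2 had 0.29 and the RNA polymerase gene Polrmt 0.33 (0.22 and 0.11 without them). Among 8 nuclear regulators (median 0.034, and 0.060 without the 2 libraries), Ppargc1b, a coactivator of mitochondrial genes, had 7.35, 6.66, 7.69 and 8.11 CPM in the KO-labelled libraries, against 5.33, 6.26, 5.89 and 6.34 CPM in the WT-labelled libraries. Its groups did not overlap, as in 1.22% of all genes in that direction (log2 fold change 0.32, SE 0.10, unadjusted p = 0.014). Its log2 fold change was 0.28 without WT-labelled libraries 1 and 2. After the GC correction it was only 0.031, at a transcript GC content of 57.8%. Pprc1 and Gabpb1 had 0.18 and -0.39 with all libraries and 0.064 and 0.083 without those 2.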

How the data were processed

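The 77 genes, the gene lists and the tests were chosen with earlier results of these data known. The count columns hold raw counts, for which the authors ran STAR alignment to mm10 and then featureCounts, per the file headers. The sources used here do not give versions, annotation release, strand setting or the gene filter. The deposited log2 FPKM values, log2 fold changes, p-values and false discovery rates are the authors' own, and the log2 FPKM values served only as a check. No per-sample column was left unused. KO was compared with WT, 4 libraries each, in R 4.3.3 by the two-sided quasi-likelihood test of edgeR 4.0.16 with TMM factors and Benjamini-Hochberg adjustment over all genes (threshold 0.05). The default filter removed 0 genes, and the code was tested on simulated data. Levels are TMM-scaled CPM. Library totals of 39601341 to 61556269 counts put at least 270 reads behind each member. Replicates were numbered in accession order and pair nothing. No pair of libraries agreed within sampling noise (chi-square per degree of freedom at least 7.25). GC content came from GENCODE M21 transcripts, and gene positions from the deposited table (mm10). Alternatives were RLE and upper-quartile factors, DESeq2 1.42.0, limma-voom 3.58.1 without and with quality weights, other filters (none, or at least 1 CPM in 4 libraries), a ribosomal RNA covariate, a GC correction (lowess, span 0.3), subunits by structure, the mean of log2 levels and left-out libraries. Sums per kilobase were added after seeing the data. No row was a pseudogene, so that alternative changed nothing. Named genes were Ogfrl1, members at an unadjusted p under 0.05 or without overlap, the 4 highest and 4 lowest of each subunit by log2 fold change and by level per kilobase, the 3 with the widest range, members with a known special role, and in each other list the genes past the test or else the 3 smallest p. Mrpl46, the partner of Mrps11, Mrpl54 and the neighbours Psma2 and Tcp1 were named after their values were seen.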

Additional observations from a re-analysis of the deposited data

Results flagged for a closer look

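In 132 groups of 4 libraries (levels of the named genes and library measures), 9 held a single library far from its 3 companions by Dixon's criterion. For independent groups chance alone gives about 1 in 20. These groups share the same libraries, and some genes were named for their range or log2 fold change in these data. The count of 9 therefore cannot be judged against that share. KO-labelled library 2 accounted for 6 of them. It had the highest value of its group for Mrps15 (59.1 CPM, against 45.4 to 45.9 in the other 3), Mrpl42 (61.0 CPM, against 43.31 to 45.04), Mrps22 (24.9 CPM, against 21.2 to 21.7) and the share of mitochondrial reads (3.17%, against 1.60 to 1.83%). It had the lowest for Mrps18a (23.2 CPM, against 27.7 to 28.0) and Dhx30 (53.9 CPM, against 64.5 to 64.8). In each of these 6 measures KO-labelled library 2 lay on the side of its group where WT-labelled libraries 1 and 2 lay, and it also had the lowest ribosomal RNA percentage of the KO-labelled group, 2.71%. The part of these properties in the levels was not tested. In KO-labelled library 1 the ratio of the large to the small subunit sum was 1.95, against 1.990 to 1.996 in the other 3. Mrpl30 in WT-labelled library 4 had 42.0 CPM, against 33.5 to 34.9 in the other 3, and Chchd1 in WT-labelled library 3 had 20.1 CPM, against 25.8 to 26.7 in the other 3.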

How the results depend on the processing

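Under 18 alternative settings 0 members were called in 17, and limma-voom with quality weights called 37, against 53.4% of all genes called in that fit. The weights were 3.67, 0.49, 3.52 and 2.77 for KO-labelled libraries 1 to 4, against 0.77, 1.02, 0.39 and 0.18 for WT-labelled libraries 1 to 4. The cause was not tested. Members at an unadjusted p under 0.05, 5 in the fit reported, numbered 3 with RLE factors (6.26% of all genes), 2 with upper-quartile factors (5.88%), 3 with limma-voom (4.64%), 43 with quality weights (60.4%), 8 with the GC correction (6.53%) and 0 without WT-labelled libraries 1 and 2 (0.996%). They numbered 0 to 31 when each library was left out in turn: 10 without KO replicate 2 (14.1% of all genes), 31 without WT replicate 4 (45.1%), 7 without WT replicate 3 (14.5%), and 0 to 2 without KO replicate 1, 3 or 4 or WT replicate 1 or 2 (1.16 to 1.94%). The large minus small difference of medians, -0.027, was 0.020 with quality weights, 0.055 by structure, and -0.036 to 0.040 with single libraries left out. Without WT-labelled libraries 1 and 2 it was 0.0068, the large and small subunit medians were -0.027 and -0.034, and the log2 ratio of sums was -0.034. With single libraries left out, the median ran between -0.017 and 0.12 for large and 0.019 and 0.083 for small subunit genes, and the log2 ratio between -0.012 and 0.013. Of 41 named members 20 kept their sign under all of these settings. In the fit reported no gene was called. With quality weights in limma-voom some of the genes that turned sign elsewhere were called, among them Mrpl20 and Ogfrl1 (adjusted p = 0.0126 for both). The log2 fold changes given next are those that turned sign. They were, without WT-labelled libraries 1 and 2, Mrpl1 0.020, Mrpl10 -0.016, Mrpl11 -0.16, Mrpl12 -0.11, Mrpl20 -0.087, Mrpl28 -0.085, Mrpl34 -0.0056, Mrpl35 0.029, Mrpl44 -0.10, Mrpl45 0.0084, Mrps12 -0.036, Mrps18c -0.027, Mrps25 -0.078, Mrps26 -0.0023, Gabpb1 0.083 and Ogfrl1 0.12. With the GC correction they were Mrpl12 -0.15, Mrpl28 -0.050, Mrpl30 0.028, Mrpl35 0.011, Mrpl45 0.10, Mrpl50 0.011, Mrps12 -0.0035, Mrps14 0.094, Mrps6 -0.030, Polrmt -0.0072, Pprc1 -0.031 and Sars2 -0.061. With the ribosomal RNA covariate they were Mrpl11 -0.036, Mrpl12 -0.012, Mrpl44 -0.0068, Mrpl45 0.017, Mrpl57 -0.0013, Mrps21 0.014 and Mrps25 -0.0027. Upper-quartile factors, which moved the median of all genes to 0.032, gave Mrpl30 0.014, Mrpl45 0.036 and Mrps14 0.015, quality weights gave Mrpl30 0.050, Mrps14 0.12 and Mrps6 -0.10, and a filter of 1 CPM gave Mrpl45 0.00047. With single libraries left out the ranges that crossed 0 were Mrpl11 -0.038 to 0.28, Mrpl12 -0.032 to 0.16, Mrpl30 -0.063 to 0.057, Mrpl45 -0.030 to 0.017, Mrps14 -0.12 to 0.11, Mrps21 -0.11 to 0.0082, Mrps25 -0.0094 to 0.14, Mrps36 -0.0058 to 0.12 and Mrps6 -0.077 to 0.068. No paired analysis was possible because replicate numbers follow accession order and no label links a KO library with a WT library. Depth was no limit to detecting reads, since every member had at least 270 reads in every library. Without WT-labelled libraries 1 and 2 the smallest adjusted p of a member was 0.999977, and 31 of the 77 log2 fold changes turned sign.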
